A study of Mus musculus with 6 samples.

Results

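The 8 subunit genes of the cytosolic chaperonin CCT (also called TRiC), namely Tcp1, Cct2, Cct3, Cct4, Cct5, Cct6a, Cct7 and Cct8, and 2 genes of its partner prefoldin, Pfdn1 and Pfdn2, were examined in primary murine hepatocytes. These 10 genes were found by symbol among the 41388 genes of the expression table, and all 10 were among the 12693 genes tested. They were chosen with the difference between these libraries already known, because protein folding by CCT and prefoldin ranked among the lower pathways. Their values are therefore given as a description, and where calls of the fit over all genes are counted for them, nothing is read from the counts.

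Hepatocytes of the C57BL/6J strain, isolated with collagenase and held overnight in growth media, received adenovirus encoding β galactosidase (β-gal), a bacterial enzyme used as the control protein, or adenovirus encoding Aloxe3, a lipoxygenase that converts fatty acid hydroperoxides. Both groups carried virus, at about 1000000 viral particles per 1000000 cells, and RNA was collected 24 h later. The β-gal libraries were replicates 1, 2 and 3, the Aloxe3 libraries replicates 7, 8 and 9 (n = 3 per group), and all came from a single sequencing run. The comparison asks which transcripts differ between cells given either virus. Neither the age of the mice, nor whether the libraries came from separate animals or cultures, is given in the sources used here, so that errors and p-values measure the spread between these 6 libraries only. Expression was deposited as RPKM, reads per kilobase of gene and scaled to the number of reads in the library.

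CCT is a barrel of a pair of stacked rings, and each ring holds a single copy of every subunit. A newly made protein is enclosed in the barrel and folds there as the subunits bind and hydrolyze ATP. Actins and tubulins are its best known substrates, and β-propeller proteins such as G protein β subunits are others. Prefoldin is a jellyfish-shaped complex of 6 subunits that catches such chains as they leave the ribosome and hands them to CCT. In the liver, as in other tissues, the complex is present in all cells, and its genes are known to be more active in growing cells than in resting ones.

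Libraries held 25521908 to 32431318 reads, as derived from the whole-number steps of the RPKM values. Aloxe3 itself had 2.04, 2.06 and 1.74 RPKM in the β-gal libraries and 42.3, 45.8 and 56.3 RPKM in the Aloxe3 libraries, as the labels state (log2 difference 4.05, SE 0.10, adjusted p = 4.74e-06 by limma). Over all genes tested, 50 had an adjusted p under 0.05 (limma, Benjamini-Hochberg), which is 0.394%, with 45 of them higher and 5 lower with Aloxe3. The 10 markers of hepatocytes summed to 5606 to 5617 RPKM in β-gal libraries and 5566 to 5728 RPKM in Aloxe3 libraries, most of it from Alb (4362 to 4552 RPKM), although the hepatocyte enzyme gene Cyp2e1 was at 2.03 to 2.86 RPKM and Cps1 at 0.915 to 1.64 RPKM. Of these 10 markers 2 passed the test, in opposite directions, Fgb with a log2 difference of 0.64 (adjusted p = 0.00507 by limma) and Ttr with one of -0.30 (adjusted p = 0.0448). The 8 markers of Kupffer cells and macrophages summed to 151 to 155 and 133 to 146 RPKM, nearly all from Cd68, while the Kupffer cell genes Clec4f, Vsig4 and Timd4 were under 1 RPKM. Endothelial markers (7 genes) summed to 30.6 to 34.8 and 30.1 to 35.2 RPKM, and those of stellate cells and fibroblasts (8 genes, with Lrat at 0) to 3.86 to 4.40 and 3.90 to 4.24 RPKM. Cholangiocyte markers (6 genes, mostly Spp1) summed to 1510 to 1593 and 1577 to 1716 RPKM, with Krt7, Epcam and Cldn7 under 1 RPKM. Leukocyte markers (5 genes, with Nkg7 at 0) summed to 0.253 to 0.393 and 0.248 to 0.357 RPKM. Only the Kupffer cell sum differed without overlap, and its part in the values below was not tested. In such bulk RNA, fewer cells of a type and less RNA per cell cannot be told apart.

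All 10 genes had a lower mean in Aloxe3-overexpressing hepatocytes than with β-gal, and every one of these differences was small. The Aloxe3 mean was 92.3% of the β-gal mean for Cct7, at the low end, and 98.7% for Pfdn1, at the high end. The median difference of the 10 genes was -0.07 in log2(RPKM + 1), against 0.0049 over all tested genes and -0.03 over the 911 other genes of 50 to 250 RPKM, the range of the chaperonin genes. Of all tested genes 17.0% had a lower difference than this median, as had 27.7% of the genes of 50 to 250 RPKM, and 47.6% of all tested genes were below 0. By limma, 0 of the 10 had an adjusted p under 0.05, beside the 0.394% of all genes, and 1 of 10 had an unadjusted p under 0.05, beside 5.42% of all genes lower at that level. With voom on the derived reads these counts were 0 and 4, all of the latter lower, beside 1.22% of all genes past the adjusted threshold and 6.65% lower at the unadjusted one. The groups did not overlap, with every Aloxe3 library below every β-gal library, for 4 of the 10 genes (Cct2, Cct3, Cct6a and Pfdn2), beside 8.71% of all tested genes. These counts come from the contrast on which the genes were chosen.

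**Figure D1:**
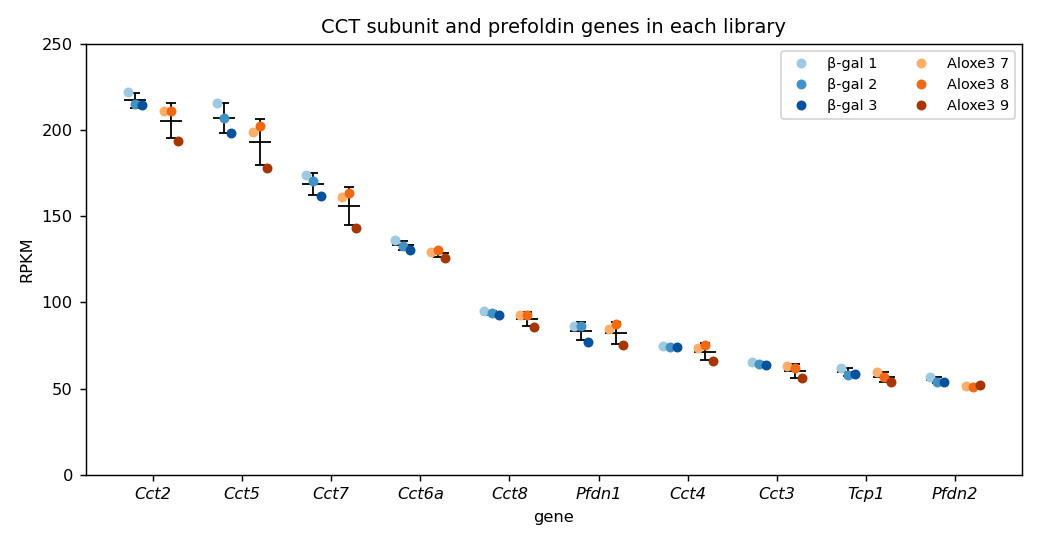
RPKM of the 10 genes (vertical axis, linear from 0) in each of the 6 libraries, with genes in order of their β-gal mean. Points are libraries, bars and whiskers the mean and SD of each group (n = 3), and the darkest Aloxe3 point, replicate 9, is the lowest of 6 for every gene except Pfdn2.

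The first of the subunits, the β subunit Cct2 (ENSMUSG00000034024, chr10:117051001-117063814 of GRCm38, reverse strand), was the most abundant gene of the group as deposited. It had 222, 215 and 215 RPKM in the β-gal libraries and 211, 211 and 194 RPKM in the Aloxe3 libraries, so that the groups did not touch and replicate 9 lay below the rest. The means were 217 ± 4.18 and 205 ± 10.1 RPKM (SD, n = 3 each), a difference of -0.08 in log2(RPKM + 1) (SE 0.04). No 50-base stretch of its exons is shared with another gene. The ε subunit Cct5 (ENSMUSG00000022234, chr15:31590800-31601804, reverse strand), in which a mutation causes a sensory neuropathy in people, was close behind. Its values were 216, 207 and 198 RPKM with β-gal against 199, 202 and 178 RPKM with Aloxe3. Here β-gal replicate 3 lay below both Aloxe3 replicates 7 and 8, so that the groups overlapped, and only replicate 9 was below all β-gal libraries. The means were 207 ± 8.64 and 193 ± 13.3 RPKM (SD, n = 3 each), a log2 difference of -0.10 (SE 0.06).

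The η subunit Cct7 (ENSMUSG00000030007, chr6:85451514-85468475, forward strand) had the most negative difference of the 10 genes. It had 174, 170 and 162 RPKM with β-gal against 161, 163 and 143 RPKM with Aloxe3, and the overlap rested on Aloxe3 replicate 8 and β-gal replicate 3. The means were 169 ± 6.19 and 156 ± 11.1 RPKM (SD, n = 3 each), a log2 difference of -0.12 (SE 0.06). Without Aloxe3 replicate 9 this difference was -0.06. The ζ subunit Cct6a (ENSMUSG00000029447, chr5:129786998-129846371, forward strand) was steadier. It had 136, 133 and 131 RPKM with β-gal against 130, 130 and 126 RPKM with Aloxe3. The groups were separated by 0.123 RPKM, which is less than the gap between any pair of β-gal libraries. The means were 133 ± 2.74 and 129 ± 2.40 RPKM (SD, n = 3 each), a log2 difference of -0.05 (SE 0.03), the least negative among the subunits. Of the 50-base windows of its annotated exons, 15.4% also occur elsewhere, most of them in the overlapping gene Psph. Whether such reads were counted as unambiguous is not known, as any use of strand is not given.

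The θ subunit Cct8 (ENSMUSG00000025613, chr16:87483326-87495873, reverse strand) had 95.3, 93.9 and 92.7 RPKM with β-gal against 92.7, 92.6 and 85.8 RPKM with Aloxe3. β-gal replicate 3 and Aloxe3 replicates 7 and 8 were thus at the same level, and replicate 9 alone was low. The means were 94.0 ± 1.28 and 90.4 ± 3.95 RPKM (SD, n = 3 each), a log2 difference of -0.06 (SE 0.04). The δ subunit Cct4 (ENSMUSG00000007739, chr11:22990519-23003780, forward strand) had the same shape in a starker form. Its β-gal libraries were nearly identical, at 74.8, 74.2 and 74.4 RPKM, and its Aloxe3 libraries had 73.3, 75.2 and 66.0 RPKM. The highest of all 6 values was thus an Aloxe3 library, and the lowest was replicate 9. The means were 74.5 ± 0.263 and 71.5 ± 4.88 RPKM (SD, n = 3 each), a log2 difference of -0.06 (SE 0.05) that came to -0.0041 without replicate 9.

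The γ subunit Cct3 (ENSMUSG00000001416, chr3:88297116-88321767, forward strand) had 65.4, 64.3 and 63.7 RPKM with β-gal against 63.3, 61.9 and 55.9 RPKM with Aloxe3. The groups did not overlap, by 0.421 RPKM, and again replicate 9 stood below the other Aloxe3 libraries. The means were 64.5 ± 0.835 and 60.4 ± 3.92 RPKM (SD, n = 3 each), a log2 difference of -0.10 (SE 0.05). A processed pseudogene copy, Cct3-ps1, took at most 0.0616 RPKM in any library. The α subunit Tcp1 (ENSMUSG00000068039, chr17:12915701-12925067, forward strand), the founding member of the family and named for the t-complex of mouse chromosome 17, was the lowest of the subunits as deposited. It had 62.1, 57.9 and 58.3 RPKM with β-gal against 59.4, 56.8 and 53.7 RPKM with Aloxe3. Aloxe3 replicate 7 was above β-gal replicates 2 and 3, so that the groups overlapped. The means were 59.4 ± 2.32 and 56.6 ± 2.81 RPKM (SD, n = 3 each), a log2 difference of -0.07 (SE 0.05). Of its 50-base windows 13.9% are shared, mostly with the overlapping gene Acat3.

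Of the prefoldin genes, Pfdn1 (ENSMUSG00000024346, chr18:36403676-36454524, reverse strand), a β-type subunit, had the difference nearest to 0 of the 10 genes. It had 86.4, 86.4 and 77.3 RPKM with β-gal against 84.4, 87.3 and 75.3 RPKM with Aloxe3, so that each group held a pair of high libraries and a low one. The means were 83.4 ± 5.25 and 82.3 ± 6.25 RPKM (SD, n = 3 each), a log2 difference of -0.02 (SE 0.07) that was 0.04 without Aloxe3 replicate 9. Pfdn2 (ENSMUSG00000006412, chr1:171345670-171359254, forward strand), another β-type subunit, had 56.8, 53.9 and 53.7 RPKM with β-gal against 51.5, 50.8 and 51.8 RPKM with Aloxe3. Its groups were apart by 1.85 RPKM, and it was the only one of the 10 genes in which replicate 9 was the highest Aloxe3 library. The means were 54.8 ± 1.73 and 51.4 ± 0.502 RPKM (SD, n = 3 each), a log2 difference of -0.09 (SE 0.04) that stayed at -0.10 without replicate 9. It had the largest share of 50-base windows in common with other genes among the 10 genes, as 25.1% overlap Klhdc9. Whether such reads were counted is not known. The 10 genes were covered by 2144 (Pfdn1) to 19547 (Cct5) reads per library, as derived from the RPKM values with lengths that were inferred for both of these genes.

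The difference was carried to a large part by Aloxe3 replicate 9. Relative to the β-gal mean, the median of the 10 genes in log2(RPKM + 1) was 0.04, -0.0032 and -0.03 in β-gal replicates 1, 2 and 3, and -0.03, -0.04 and -0.15 in Aloxe3 replicates 7, 8 and 9. Replicate 3 of the control thus lay at nearly the same level as Aloxe3 replicates 7 and 8, with all 10 genes below the β-gal mean against 9 and 8 in the latter. The genes of 50 to 250 RPKM had medians of -0.03, -0.03 and -0.04 in Aloxe3 replicates 7, 8 and 9, so that the chaperonin genes were close to genes of the same level in replicates 7 and 8 and below them in replicate 9. Replicate 9 was the lowest of the 6 libraries for 9 of the 10 genes, and for all 8 subunits. Among all tested genes it was the lowest for 30.0%, and among genes of 50 to 250 RPKM for 40.2%. At the other end, β-gal replicate 1 was the highest library for 8 of the 10 genes, against 15.5% of all tested genes. The mitochondrial genome took 3.70% of reads in replicate 9 and 2.76% to 2.98% in the other libraries. With values rescaled without its reads the median difference of the 10 genes was -0.069, with 10 below 0, beside -0.0748 as deposited. Any further part of it in the difference was not tested.

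Without replicate 9 the median difference was -0.04, with 9 of 10 genes below 0, while genes of 50 to 250 RPKM had a median of -0.03. Without β-gal replicate 1 the median was -0.06, also with 9 of 10 genes below 0. With both left out, a choice made after seeing the data, it was -0.017 beside -0.03 for genes of 50 to 250 RPKM. Pfdn1 was the gene above 0 in each of these 3 cases.

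**Figure D2:**
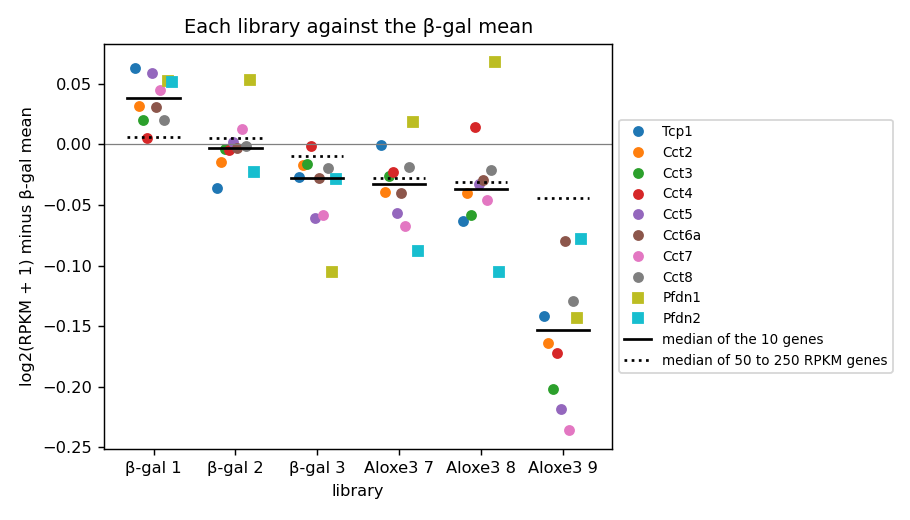
Each library (horizontal axis) against the β-gal mean of the same gene, in log2(RPKM + 1), for the 8 subunit genes (circles) and both prefoldin genes (squares), with solid bars at the median of the 10 genes and dotted bars at the median of the 911 other genes of 50 to 250 RPKM. The solid bar lies at -0.03 and -0.04 in Aloxe3 replicates 7 and 8, next to the dotted one, and at -0.15 in replicate 9.

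The subunits kept their proportions. Summed over the 8 genes, CCT had 1045.5, 1016 and 995 RPKM in the β-gal libraries and 989.6, 994 and 902 RPKM in the Aloxe3 libraries. The mean with Aloxe3 was 94.4% of that with β-gal, made up of 97.4% in replicates 7 and 8 and 88.5% in replicate 9. Of this sum Cct2 gave 21.2% to 21.6% across the 6 libraries and Cct5 19.7% to 20.6%. Cct7 gave 15.9% to 16.8%, Cct8 9.11% to 9.51%, and Cct4 7.15% to 7.57%. Cct3 took 6.20% to 6.41%, and Tcp1 5.70% to 6.00%. The widest span was that of Cct6a, 0.945 percentage points, which came from replicate 9 alone, at 14.0% against 13.0% to 13.1% in the other 5 libraries.

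**Figure D3:**
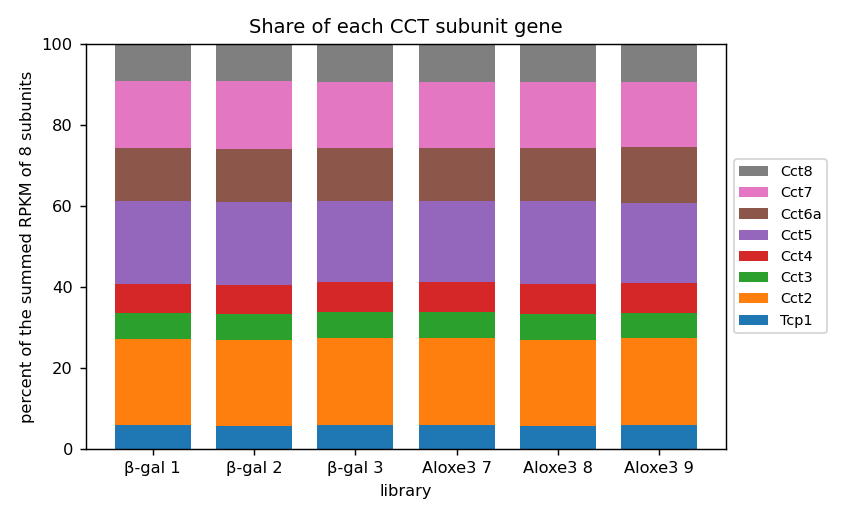
Stacked bars show the percent of the summed RPKM of the 8 CCT subunit genes that each gene contributes, in each of the 6 libraries. The bands are nearly level from β-gal replicate 1 to Aloxe3 replicate 9, with Cct6a moving most, by 0.945 percentage points.

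The order of levels was read in the β-gal libraries. As deposited it ran from Cct2 and Cct5, whose libraries overlapped, through Cct7, Cct6a, Cct8, Pfdn1, Cct4, Cct3 and Tcp1 to Pfdn2, and every other pair of neighbors in this order was separated in all libraries. Cct2 was 3.66 times Tcp1. RPKM divides by the exon length of a gene, which can include introns kept in minor transcripts. For Tcp1 that length was 5030 bases and the main transcript 2446 bases, and for Cct3 4689 and 1977 bases. Per kilobase of main transcript (a scale added after seeing the data), Cct5 came first with 314 ± 13.1, followed by Cct2 with 218 ± 4.19 and Cct7 with 169.6 ± 6.22 (SD, n = 3 each). Cct3 came next among the genes placed, with 153 ± 1.98. Every Cct4 library was above every Cct8 library (126 ± 0.444 and 121 ± 1.66), while Tcp1, with 122 ± 4.77, overlapped both. Pfdn2 was the lowest of the genes placed, with 61.1 ± 1.93. Among the subunits placed the highest was 2.59 times the lowest. Cct6a and Pfdn1 were not placed, because their inferred lengths of 1599 and 1077 bases are shorter than their main transcripts of 2454 and 1109 bases. The lengths behind the RPKM of Cct2, Cct3, Cct5 and Cct7 were likewise inferred as the shortest that give whole reads, so their values and places on this scale hold only if those lengths are right, whereas the order as deposited does not depend on them.

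Promoters are shown to let the sequences before these genes be compared, and whether they bear on the values was not tested. Of the 10 genes, 8 had an entry among the RefSeq promoter windows of GRCm38.p6, and Cct4 and Pfdn1 did not. In Tcp1 and Cct6a the RefSeq start lies 628 and 358 bases from the GENCODE start, so the window is wholly within the gene. The 250 bases before the start were searched on both strands for letters of known promoter elements. The GC box, GGGCGG, the letters bound by Sp1-type factors, occurred in 8 of 8 genes, and in 32.7% of all 32851 windows. CCAAT, the letters bound by NF-Y, occurred in 4 of 8 (Tcp1, Cct3, Cct6a and Cct7), and in 33.8% of all windows. The paired repeat of the heat shock element, bound by HSF1, was searched in both its phases. GAANNTTC was found in 0 of 8 genes and in 6.69% of all windows, while TTCNNGAA was found in 1, Cct5, and in 7.17% of all windows. CCGGAAG, the core bound by ETS factors, occurred in Cct2 and Cct8, and in 6.91% of all windows. Neither the E box, CACGTG, nor the TATA box, TATAAA, was found in any of the 8, against 6.02% and 12.4% of all windows. GC content was above the median of all windows, 52.4%, in 7 of 8 genes, Cct5 with 45.2% being the exception. These matches are a description of letters and not of bound sites. Below, read toward the gene and ending at the base before the RefSeq start, are Cct7 (chr6:85451255-85451504, forward strand), which had the most CCAAT matches and the most negative difference, Cct3 (chr3:88296885-88297134, forward strand), with both elements close together, Cct2 (chr10:117063853-117064102, reverse strand), with a run of GC boxes and no CCAAT, and Cct5 (chr15:31601847-31602096, reverse strand), the gene with the heat shock letters. Capitals mark the CCAAT letters, the GC boxes and the heat shock letters on either strand.
Cct7: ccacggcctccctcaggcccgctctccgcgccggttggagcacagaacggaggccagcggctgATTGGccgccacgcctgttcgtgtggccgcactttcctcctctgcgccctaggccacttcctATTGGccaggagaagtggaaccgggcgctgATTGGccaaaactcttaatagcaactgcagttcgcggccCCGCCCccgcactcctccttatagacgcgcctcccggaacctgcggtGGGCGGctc
Cct3: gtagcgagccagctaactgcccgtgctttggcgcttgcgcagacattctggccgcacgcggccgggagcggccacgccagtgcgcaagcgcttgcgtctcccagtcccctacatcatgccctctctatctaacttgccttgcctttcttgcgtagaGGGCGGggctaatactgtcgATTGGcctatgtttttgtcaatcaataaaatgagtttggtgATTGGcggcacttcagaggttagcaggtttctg
Cct2: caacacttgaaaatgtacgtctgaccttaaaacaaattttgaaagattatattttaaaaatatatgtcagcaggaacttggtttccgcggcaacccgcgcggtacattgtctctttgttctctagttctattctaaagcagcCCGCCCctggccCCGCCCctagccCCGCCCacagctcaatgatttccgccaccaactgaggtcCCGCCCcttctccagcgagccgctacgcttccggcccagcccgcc
Cct5: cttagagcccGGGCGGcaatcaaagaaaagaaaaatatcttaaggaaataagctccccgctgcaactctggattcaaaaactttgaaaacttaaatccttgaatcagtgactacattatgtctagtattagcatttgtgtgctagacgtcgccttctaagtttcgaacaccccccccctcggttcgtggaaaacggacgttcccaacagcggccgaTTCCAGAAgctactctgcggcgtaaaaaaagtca

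The rest of the chaperonin system was then examined, as 81 other genes in 10 hand-written lists, of which 73 were tested. Of these 1 was higher and 0 were lower at an adjusted p under 0.05 (limma), beside 0.355% and 0.0394% of all genes tested. At an unadjusted p under 0.05 they were 6 and 17, beside 7.31% and 5.42% of all genes, and the median difference of the 73 genes was -0.03, or 0.0022 without Aloxe3 replicate 9. With voom 4 were past an adjusted p of 0.05, 1 of them higher and the others lower, beside 1.02% higher and 0.205% lower of all genes.

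The 4 prefoldin subunits beside Pfdn1 and Pfdn2 had differences on both sides of 0, with a median difference of 0.03 (0.05 without Aloxe3 replicate 9) and 0 of 4 past the threshold, beside 0.394% of all genes. Vbp1, an α-type subunit, had 7.30, 6.57 and 7.01 RPKM with β-gal against 7.26, 6.79 and 6.10 RPKM with Aloxe3. Pfdn5, the other α-type subunit, had 40.6, 43.1 and 42.0 RPKM and 43.3, 43.9 and 40.5 RPKM. Pfdn4 was at 3.87 ± 0.334 and 3.99 ± 0.217 RPKM, and Pfdn6 at 29.1 ± 1.87 and 30.1 ± 1.59 RPKM (SD, n = 3 each). The groups overlapped in all of these, with log2 differences of -0.05 (SE 0.06), 0.02 (SE 0.04), 0.03 (SE 0.06) and 0.05 (SE 0.06) for Vbp1, Pfdn5, Pfdn4 and Pfdn6. Summed over all 6 prefoldin genes the level was 219.9 ± 6.02 RPKM with β-gal against 217 ± 8.75 RPKM with Aloxe3 (SD, n = 3 each).

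Of the paralogues of the chaperonin, Cct6b and Cct8l1 were near 0. Cct6b, a copy of Cct6a known from testis, had 0.0331, 0.0989 and 0.108 RPKM with β-gal against 0.105, 0.0176 and 0.0607 RPKM with Aloxe3, and Cct8l1 was at 0 in all libraries but Aloxe3 replicates 7 and 9, with 0.02004 and 0.0387 RPKM. Mkks, Bbs10 and Bbs12, chaperonin-like proteins that assemble the BBSome of the cilium, were at 5.24 ± 0.203, 0.810 ± 0.164 and 1.55 ± 0.150 RPKM with β-gal (SD, n = 3 each). With Aloxe3 they were at 5.38 ± 0.243, 0.842 ± 0.0291 and 1.54 ± 0.282 RPKM (SD, n = 3 each), and the groups overlapped in all 3.

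Phosducin-like proteins bind CCT and help it release its substrates. Pdcl, which assists the assembly of G protein β and γ subunits, had 9.46, 9.63 and 9.10 RPKM with β-gal against 8.73, 8.26 and 7.61 RPKM with Aloxe3. Its groups did not overlap, and its difference of -0.18 (SE 0.05) was not past the threshold (adjusted p = 0.269 by limma). Pdcl3 was at 58.5 ± 0.959 and 55.8 ± 2.65 RPKM and Txndc9 at 9.72 ± 0.262 and 9.46 ± 0.188 RPKM (SD, n = 3 each), both overlapping, with log2 differences of -0.07 (SE 0.04) and -0.03 (SE 0.04). Pdcl2 was listed at 0 in all libraries. Of the 8 genes of the prefoldin-like and R2TP complexes, which assemble large machines such as RNA polymerases, 7 had a difference below 0, beside 47.6% of all genes tested, with a median of -0.08 and 0 past the threshold, beside 0.394%. At an unadjusted p under 0.05 3 of the 8 (Pih1d1, Pdrg1 and Wdr92) were lower, beside 5.42%, and in the same 3 genes every Aloxe3 library was below every β-gal library, beside 8.71%. The smallest p values belonged to Pih1d1 (12.8 ± 0.328 and 10.9 ± 0.892 RPKM, SD, n = 3 each, log2 difference -0.22, SE 0.06, adjusted p = 0.249 by limma) and Pdrg1 (18.3 ± 0.331 and 16.1 ± 1.29 RPKM, log2 difference -0.18, SE 0.06, adjusted p = 0.289).

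Among the substrates, most tubulin genes had lower means with Aloxe3. Of 11 tested tubulin genes 9 had a difference below 0, beside 47.6% of all genes tested, and 0 were past the threshold, beside 0.394%. Under an unadjusted p of 0.05 (limma) 7 were lower and 1 higher, beside 5.42% and 7.31%. The groups did not overlap in 7 lower genes and 1 higher gene, beside 8.71% and 11.2%. The median of the 11 tubulin genes was -0.20, and -0.19 without Aloxe3 replicate 9. Tuba1a, an α-tubulin, had 77.4, 73.1 and 68.9 RPKM with β-gal against 58.9, 56.9 and 52.8 RPKM with Aloxe3. Every Aloxe3 library was thus below every β-gal library, with a log2 difference of -0.37 (SE 0.06) and an adjusted p of 0.0501 (limma), just outside the threshold. This p ranged from 0.0017 to 0.224 over the alternatives. Tuba1c had 63.6 ± 4.07 and 52.5 ± 0.896 RPKM (SD, n = 3 each), a log2 difference of -0.27 (SE 0.05, adjusted p = 0.0919 by limma, 0.0106 with voom on derived reads, and up to 0.33 over the other alternatives). Of their 50-base windows 75.5% and 52.7% are shared with other genes, chiefly with each other and Tuba1b, so their split is uncertain.

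The sum of the 14 tubulin genes was 1617, 1468 and 1378 RPKM with β-gal against 1323, 1283 and 1323 RPKM with Aloxe3, 88.0% of the β-gal mean, and 87.6% in replicates 7 and 8. Unlike the chaperonin sum, the tubulin sum did not have its lowest value in replicate 9. CCT transcripts per 100 RPKM of tubulin were 64.7, 69.2 and 72.2 with β-gal and 74.8, 77.5 and 68.2 with Aloxe3, so that the groups overlapped.

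**Figure D4:**
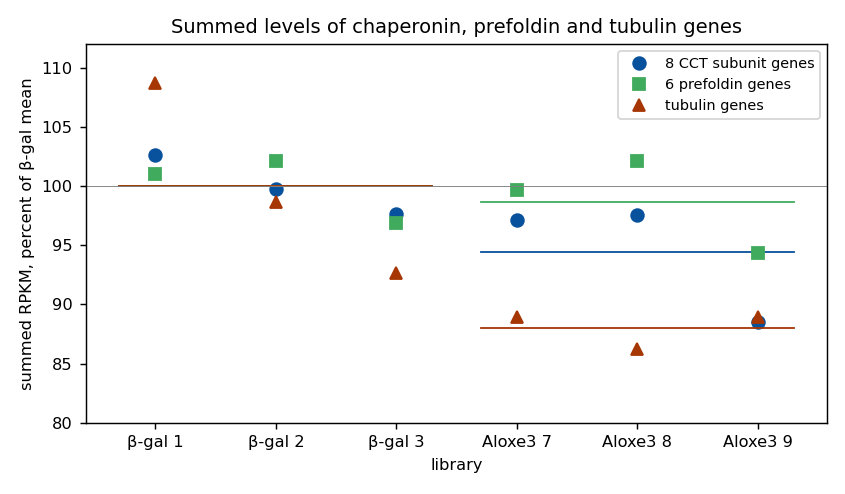
Summed RPKM of the 8 CCT subunit, 6 prefoldin and 14 tubulin genes in each library, as a percent of the β-gal mean of the same sum (vertical axis), with lines at the group means. In Aloxe3 replicates 7 and 8 the CCT sum was at 97.4% and the tubulin sum at 87.6% on average, and in replicate 9 the CCT sum was at 88.5%.

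Other clients and cofactors varied in both directions. All 7 actin and actin-related genes had a difference below 0 (median -0.10), beside 47.6% of all genes tested, with 0 past the threshold, beside 0.394%. At an unadjusted p under 0.05 3 of the 7 were lower, beside 5.42%, and in 4 of the 7 every Aloxe3 library was below every β-gal library, beside 8.71%. Actr3, a subunit of the Arp2/3 complex, was at 28.0 ± 0.947 and 25.2 ± 0.482 RPKM, and Actr1a, a subunit of dynactin, at 64.3 ± 1.33 and 59.8 ± 1.93 RPKM (SD, n = 3 each), with log2 differences of -0.15 (SE 0.04) and -0.10 (SE 0.04). Of the 7 tubulin folding cofactors 5 were below 0, beside 47.6% of all genes tested, and 0 were past the threshold, beside 0.394%. Their median of -0.03 turned to 0.04 without Aloxe3 replicate 9. Arl2, the GTPase that works with them, had a log2 difference of -0.13 (SE 0.04). Tbca, which holds β-tubulin after its release from CCT, had one of 0.19 (SE 0.07). Without β-gal replicate 1 that of Arl2 was -0.15 and that of Tbca 0.11. Neither was past the threshold (adjusted p = 0.285 and 0.339 by limma). Of the 13 other tested clients 9 had a difference below 0, beside 47.6% of all genes tested. Past the threshold 1, Ccne1, was higher and 0 were lower, beside 0.355% and 0.0394% of all genes. Under an unadjusted p of 0.05 (limma) 2 were higher and 2 lower, beside 7.31% and 5.42%. The groups did not overlap in 1 higher and 3 lower genes, beside 11.2% and 8.71%. Ccne1, which encodes cyclin E1 and drives entry into S phase, had 13.8, 11.5 and 11.7 RPKM with β-gal against 20.03, 17.7 and 19.998 RPKM with Aloxe3, a log2 difference of 0.60 (SE 0.08, adjusted p = 0.027 by limma). Its groups were far apart, and its adjusted p lay above 0.05 in 5 of the 6 fits that left out a single library, with a range of 0.00064 to 0.155 over the alternatives.

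Most chaperone genes of other systems had differences near or above 0. The mitochondrial chaperonin Hspd1 (Hsp60) had 72.8, 73.0 and 73.7 RPKM with β-gal against 73.7, 73.0 and 72.5 RPKM with Aloxe3, a log2 difference of -0.0028 (SE 0.03), and its co-chaperonin Hspe1 was at 38.7 ± 1.05 and 40.8 ± 2.52 RPKM (SD, n = 3 each). Of 15 tested genes of HSF1 and the cytosolic heat shock chaperones, 3 were below 0, beside 47.6% of all genes tested, and 0 were past the threshold, beside 0.394%, with a median of 0.05. At an unadjusted p under 0.05 2 were higher, beside 7.31%, and 0 lower. The groups did not overlap in 2 higher genes, beside 11.2%, and in 1 lower gene, beside 8.71%. The latter, named after its values were seen, was the small heat shock protein gene Hspb1, with the largest absolute difference of the list. Hspb1 was at 80.7 ± 1.63 RPKM with β-gal against 73.0 ± 7.10 RPKM with Aloxe3 (SD, n = 3 each), a log2 difference of -0.15 (SE 0.07, adjusted p = 0.419 by limma), and is uncertain, since 50.1% of its 50-base windows also occur elsewhere, most of them in Hsp25-ps1. Hsp90aa1, an inducible form of HSP90, had 44.7, 43.6 and 44.6 RPKM with β-gal against 47.4, 46.3 and 49.5 RPKM with Aloxe3, a log2 difference of 0.11 (SE 0.04, adjusted p = 0.315 by limma). Stip1, which links HSP70 to HSP90, was at 124 ± 0.678 and 135 ± 6.94 RPKM (SD, n = 3 each), a log2 difference of 0.12 (SE 0.04, adjusted p = 0.323 by limma). In Hsp90aa1 and Stip1 Aloxe3 replicate 9 was the highest library, whereas it was the lowest for the 8 subunits. The uncertainty of Hspb1 holds also for Hsp90aa1 and Hspd1, as 47.5% and 42.1% of their 50-base windows also occur elsewhere. Whether these lists differed from the CCT genes was not tested, since the latter were chosen on this contrast.

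**Figure D5:**
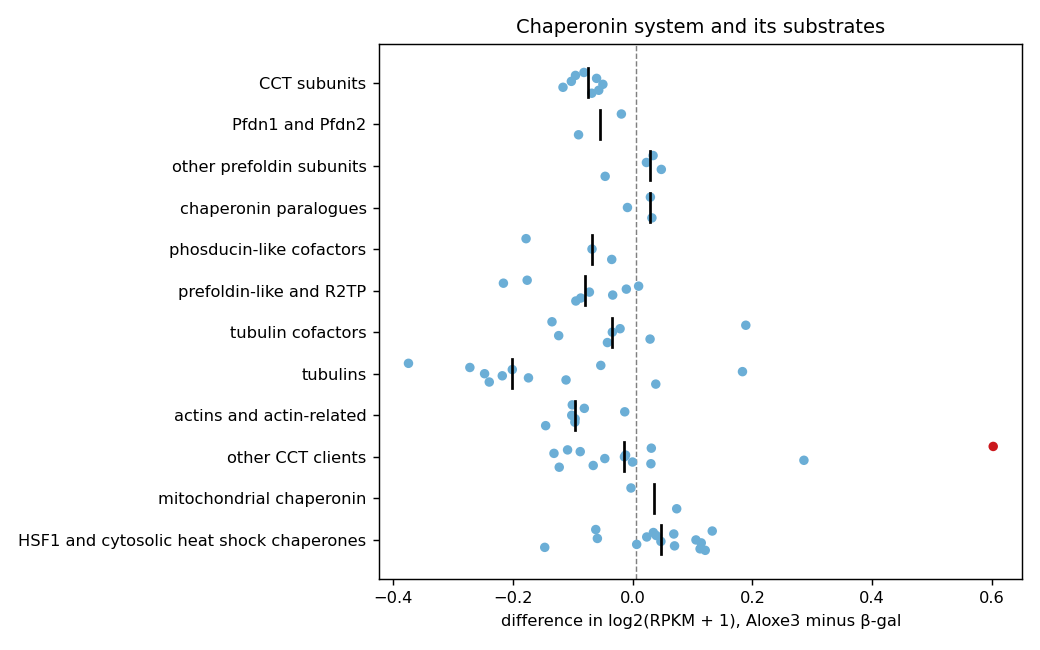
Difference in log2(RPKM + 1) between Aloxe3 and β-gal (horizontal axis, Aloxe3 minus β-gal) for each tested gene of 12 lists around the chaperonin, with vertical bars at the median of each list and a dashed line at 0.0049, the median of all tested genes. Ccne1, in red at 0.60, was the gene past an adjusted p of 0.05, and the medians run from -0.20 for tubulins to 0.05 for heat shock chaperones.

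Genes with a profile like the chaperonin were sought by the mean absolute distance of log2(RPKM + 1), relative to the β-gal mean, from the median of the 10 genes over the 6 libraries, among 7356 other genes of at least 5 RPKM. The closest were the kinase gene Stk11 (distance 0.0097), the decapping scaffold gene Edc4 (0.011), Ttc37, a part of the cytosolic SKI complex (0.011), the secretory pathway gene Tmed4 (0.011) and Psmd13, a subunit of the proteasome lid (0.012). Stk11 had 23.5, 23.2 and 22.7 RPKM with β-gal against 22.8, 22.5 and 20.99 RPKM with Aloxe3, so that it too was lowest in replicate 9. The 10 genes themselves lay at distances from 0.0082 (Cct2) to 0.05 (Pfdn1). As the closest of 7356 candidates, such genes were bound to lie near the profile. Log2 differences of these 5 genes were -0.06 (Stk11, SE 0.04), -0.06 (Edc4, SE 0.05), -0.08 (Ttc37, SE 0.04), -0.08 (Tmed4, SE 0.05) and -0.08 (Psmd13, SE 0.04). Without Aloxe3 replicate 9 they were -0.03, -0.01, -0.04, -0.03 and -0.04 in the same order.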

How the data were processed

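RNA was sequenced as single reads of 50 bases. The authors aligned them with STAR 2.0.4b to the Ensembl 76 assembly (GRCm38.p2 in the submitters' processing notes), took unambiguous reads with a unique alignment as counts per gene (featureCounts 1.4.5), and deposited RPKM values. The step from counts to RPKM, and any use of strand, is not given in the sources used here.

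Symbols and coordinates were taken from GENCODE M21, in which 40254 gene identifiers matched and 1134 did not. Groups follow the sample labels. RPKM values were used without further scaling and tested two-sided as log2(RPKM + 1) by a linear model with moderated, trended variance (limma 3.58.1, R 4.3.3), which understates changes of low genes, for genes averaging 0.5 RPKM or more. Benjamini-Hochberg adjustment covered all tested genes, with a threshold of 0.05. An exact permutation test of 3 libraries against 3 cannot go below 0.1. Reads per gene were derived from the steps of the RPKM values (whole within 0.02), with the M21 exon length for 16539 genes and otherwise the shortest length giving whole numbers for 8444, whose reads are known up to a common factor. Their sums came to 99.74% to 99.76% of each library, and 1 read per kb is worth 0.0308 to 0.0392 RPKM.

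Members and lists were chosen with earlier results of these data known. Named beside the 10 members were all expressed genes of 3 lists (other prefoldins, paralogues, phosducin-like), in each other list those past the threshold or otherwise the 2 with the smallest p, the 5 closest profiles, and Aloxe3. Outside this rule Wdr92, Hspb1 and the cell type markers were named too. Shared windows were counted over 50-base stretches of M21 exons. Promoters came from RefSeq windows, taking the one nearest to the start of the gene in GENCODE M21.

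Alternatives were a pseudocount of 0.1, no filter, a filter at 5 RPKM, median and quantile scaling, rescaling without mitochondrial reads, eBayes without trend, voom on derived reads and each library left out. Leaving out β-gal replicate 1 with Aloxe3 replicate 9, and levels per main transcript, were added after seeing the data. Reads were also simulated for this comparison, with 12716 genes tested. Of genes changed 1.25-fold 10 of 50 were recovered, of those changed 1.5-fold 39 of 50, and of those changed 2-fold 45 of 49. Of the unchanged genes 8 were called. The simulated spread was set alike for all genes, without a shift of any library, so recovery in the real libraries can differ. Tables were made with Python 3.11.15, numpy 2.4.6 and pandas 2.3.3.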

Additional observations from a re-analysis of the deposited data

How the results depend on the processing

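The median difference of the 10 genes, -0.07 in log2(RPKM + 1), stayed below 0 in all 15 alternatives. It was -0.10 to -0.04 with a single library left out, with -0.04 without Aloxe3 replicate 9, and -0.017 without both β-gal replicate 1 and Aloxe3 replicate 9. Of the 150 values of single genes under these alternatives 145 were below 0, and the 5 others were of Pfdn1. The count of genes past the threshold, 50, was 7 without a filter on low values, 155 with voom on derived reads, 6 to 19 with a single library left out, and 12 without both of the above libraries. Among the 73 other genes of the chaperonin system, 1 in the main test, it was 0 with eBayes without trend, 0 without a filter, 0 without both libraries, 0 to 1 with a single library left out, 2 with a filter at 5 RPKM, 2 with median scaling, 2 with rescaling without mitochondrial reads and 4 with voom. The cause was not tested. Tuba1a passed in 4 of these (adjusted p = 0.0194 with the filter, 0.0472 with median scaling, 0.0465 without mitochondrial reads and 0.0017 with voom). Of 431 values of the other named genes, without Wdr92, Hspb1 and the cell type markers, 17 turned direction. All were of genes that were not past the threshold in the main test or in that alternative. Their values over the 7 fits that left out libraries ran from -0.0962 to 0.0431 for Vbp1, -0.0242 to 0.0977 for Pfdn4, -0.0031 to 0.0845 for Pfdn6, -0.0234 to 0.0541 for Mkks, -0.0437 to 0.0861 for Bbs10, -0.0731 to 0.0841 for Bbs12, -0.0092 to 0.0027 for Hspd1 and -0.0856 to 0.0065 for Edc4. Without both of the above libraries they were 0.0431 for Vbp1, -0.0004 for Pfdn6, -0.0234 for Mkks, -0.0313 for Bbs10, 0.0522 for Bbs12 and 0.0065 for Edc4. With quantile scaling Bbs10 was at -0.0090 and Hspd1 at 0.0320, and with rescaling without mitochondrial reads Hspd1 was at 0.0030. No paired analysis was possible because the groups share no replicate numbers.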
